A study of Macaca mulatta with 51 samples.

Results

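A set of 10 genes of the contractile and calcium-handling machinery of fast skeletal muscle fibers were followed in gastrocnemius skeletal muscle (SM) biopsies of rhesus macaques treated with the hormone FGF21: MYH1, MYH2, MYLPF, MYL1, TNNT3, TNNC2, TNNI2, ACTN3, CASQ1 and ATP2A1. The members were taken by symbol, and 9 of the 10 were found among the 16033 genes of the count table; ATP2A1, the fast fiber calcium pump, had no row and was not analysed here. All 9 passed the filter on low counts in SM, where 12617 genes were tested. The animals were adult diet-induced obese (DIO), non-diabetic males and ovariectomized females on a high-fat diet, and no separate control group was used: SM was sampled before treatment (pre-treatment, 6 libraries), after 12 weeks of daily subcutaneous injections of native human FGF21 at rising doses (post-treatment, 8 libraries) and 16 weeks after the injections stopped (washout, 7 libraries). All groups shared the diet, and 1 biopsy stands for each animal and time point. The later biopsies followed earlier sampling of the same animals. Treatment, time, earlier biopsies and the site of the punch therefore cannot be told apart. The 21 libraries came from 8 animals, and the counts of 3 labelled SM samples were not analysed here. Animals 20456 and 21866 therefore had no pre-treatment library, and animal 21866, with a post-treatment library alone, entered no within-animal comparison.

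Fast fibers, also called type II fibers, shorten quickly and draw much of their ATP from glycolysis, whereas slow type I fibers are built for endurance. The fiber type is set largely by which isoforms of the sarcomere proteins are made: a myosin heavy chain that sets the speed of the motor, light chains that bind its lever arm, and a troponin complex that lets calcium switch the thin filament on. The gastrocnemius is a mixed muscle in which fast fibers are common. In a biopsy of whole tissue, fewer fast fibers and less RNA per fast fiber cannot be told apart.

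Between 14455195 and 21740711 reads per SM library were counted on genes, and the 9 members together took 8.09% to 20.2% of them (mean 14.3 ± 2.45%, SD, n = 21). At this depth the 95% Wilson interval of that share was at most 0.0414 percentage points wide, an interval that covers counting error only, narrow beside the spread of the share between SM biopsies. The muscle markers ACTA1, DES, TTN, NEB, MYOT, TCAP, CKM and MB were detected in every SM library and summed to between 33875 and 161854 CPM, counts scaled to libraries of equal size after adjustment by the trimmed mean of M values (TMM). Some libraries stood apart. The post-treatment library of animal 21189 had the lowest muscle marker sum, the largest TMM factor (1.46) and the highest sum of the 6 fibroblast markers, 25979 CPM against a lowest of 249 CPM. The collagen genes COL1A1, COL1A2 and COL3A1 carried most of that sum, at 5951, 9294 and 8050 CPM. LUM was also at its highest there, 635 CPM, but DCN stood at 2042 CPM, below 2946 CPM in animal 21866 post-treatment. PDGFRA stood at 6.14 CPM, beside a median of 6.60 CPM over all SM libraries. The pre-treatment library of animal 22130 held almost no slow fiber signal, with 2.39 CPM of the slow myosin MYH7. The library identifiers were grouped into 3 number series. Of the SM libraries, the first holds 3 pre-treatment and 5 post-treatment libraries and the middle 1 pre-treatment and 1 washout library. The last holds 2, 3 and 6 libraries of the 3 time points. The post-treatment library of animal 19832 was placed in the first, though its identifier lies apart from the rest of that series. What the series stand for is unknown, and no SM washout library is in the first.

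MYH1 encodes the myosin heavy chain of type IIX fibers. Its lowest, median and highest levels were 33895, 76500.3 and 98541 CPM pre-treatment, 13472, 54058 and 105204 CPM post-treatment, and 62495, 75794 and 101664 CPM at washout. The 8 post-treatment biopsies fell apart into 4 of 33446 CPM or less, from animals 21189, 21866, 24849 and 20275, and 4 of 74670 CPM or more, from animals 20456, 23004, 22130 and 19832. Pre-treatment, only animal 20275 was as low, at 33895 CPM, and at washout none was. MYH2, the heavy chain of type IIA fibers, had lowest, median and highest levels of 3653, 8140.1 and 16810.3 CPM pre-treatment, 2042, 10427 and 15297 CPM post-treatment, and 5717, 12693 and 31044 CPM at washout. Animal 24849 was lowest in MYH2 at each of the 3 time points, and animal 20275 had the highest washout level. The groups overlapped for both genes. MYH1 and MYH2 lie side by side between MYH4 and MYH3 in the RefSeq gene order of the rhesus assembly T2T-MMU8v2.0, a cluster of genes of near-identical sequence, and how reads that fit several of them were assigned is not given in the sources used here, so the split of counts between the myosin genes is uncertain.

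**Figure D1:**
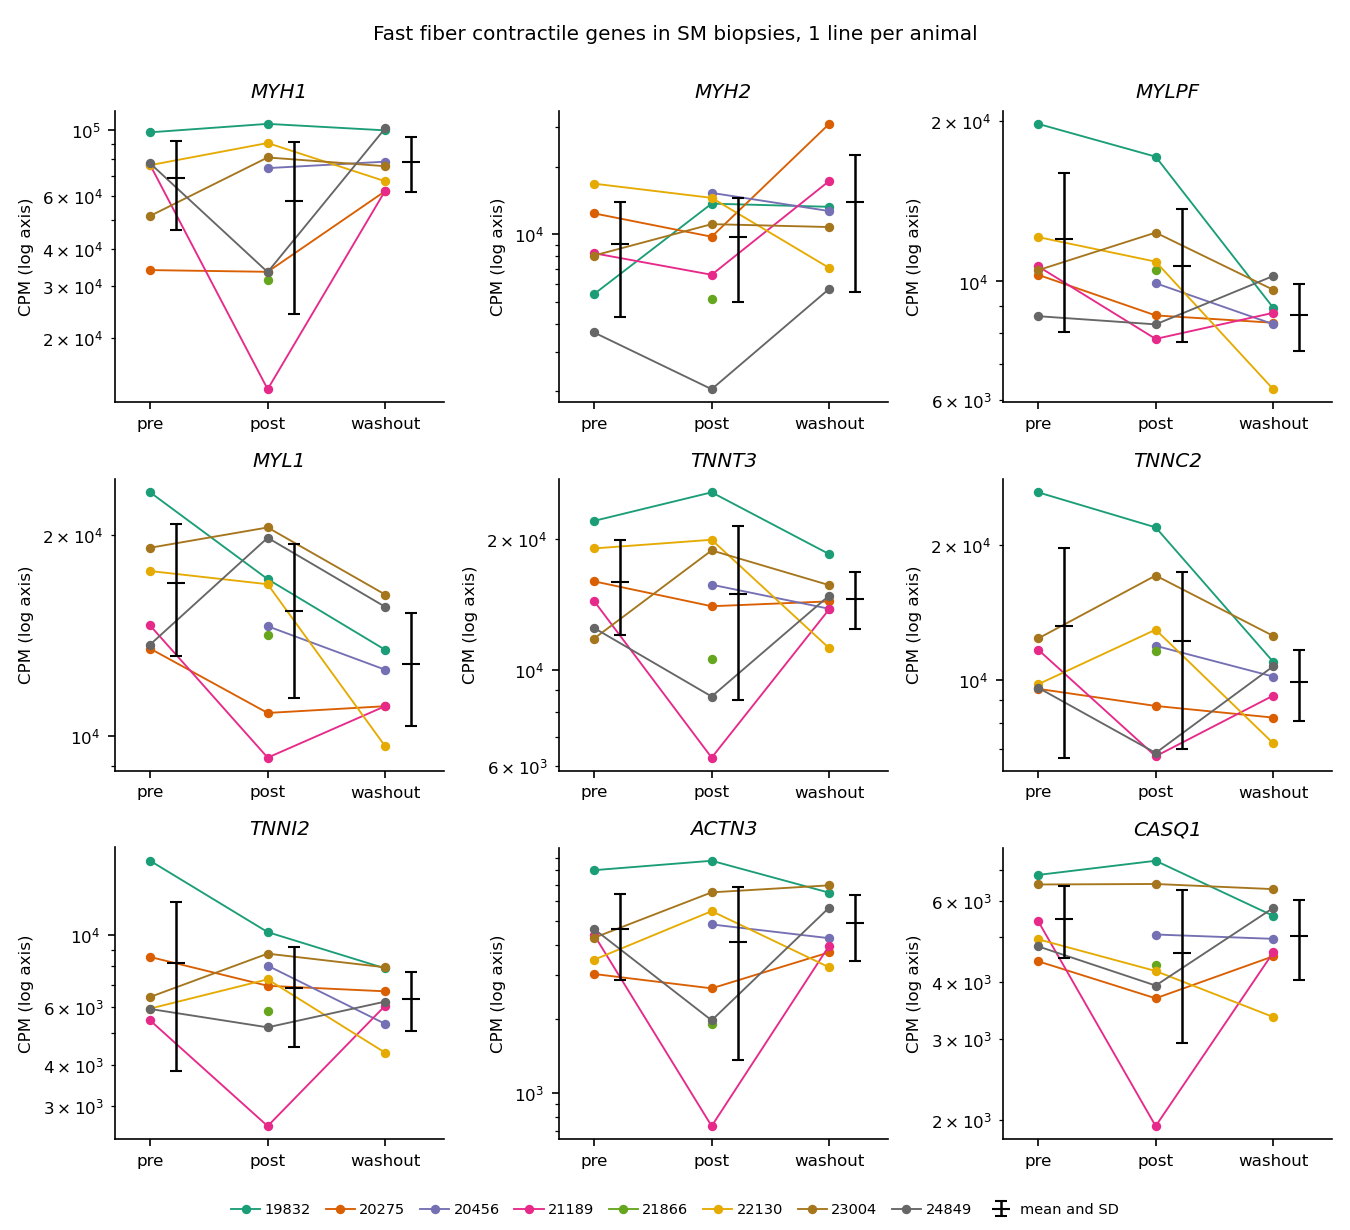
CPM on a log axis (vertical) of the 9 fast fiber genes in SM biopsies at the 3 time points (horizontal), with 1 point per biopsy, 1 line per animal and black bars for the mean and SD of each time point. The post-treatment point of animal 21189 is the lowest of its time point for 8 of the 9 genes, and the 3 time points overlap for every gene.

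The light chains varied less than the heavy chains. MYLPF encodes the fast regulatory light chain of myosin, and its lowest, median and highest levels were 8612, 10587 and 19718 CPM pre-treatment, 7809, 10226 and 17120.3 CPM post-treatment, and 6288, 8737 and 10240.3 CPM at washout. MYL1, the fast essential light chain, ranged from 13508 through a median of 16138 to 23149 CPM pre-treatment, from 9274 through 15726 to 20507 CPM post-treatment, and from 9645 through 12557 to 16271 CPM at washout. For both genes the median was highest pre-treatment and lowest at washout, with the ranges overlapping throughout. Over all 21 biopsies the highest level was 2.5 times the lowest for MYL1 and 3.14 times for MYLPF, against 7.81 times for MYH1, 11.9 times for ACTN3 and 15.2 times for MYH2. CASQ1 (3.77 times), TNNC2 (3.90 times), TNNT3 (4.09 times) and TNNI2 (6.47 times) lay between.

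The fast troponin complex was represented by all 3 subunits. TNNT3, which anchors the complex to tropomyosin, had lowest, median and highest levels of 11799, 15193 and 22041 CPM pre-treatment, 6268, 14857 and 25651 CPM post-treatment, and 11208, 14374 and 18473 CPM at washout. TNNC2, the calcium sensor, stood at 9536, 10715 and 26257 CPM pre-treatment, 6735, 11740 and 21916 CPM post-treatment, and 7202, 10158 and 12525 CPM at washout. TNNI2, the inhibitory subunit, stood at 5468, 6195 and 16808 CPM pre-treatment, 2599.7, 7137 and 10175 CPM post-treatment, and 4355, 6241 and 7943 CPM at washout. The highest pre-treatment values of all 3 came from animal 19832, whereas TNNC2 of the other 5 animals lay between 9536 and 12359.5 CPM. The post-treatment lows of all 3 came from animal 21189.

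ACTN3, the alpha-actinin that crosslinks thin filaments at the Z-disk of fast fibers, had lowest, median and highest levels of 3038, 4318 and 8008 CPM pre-treatment, 734, 3741 and 8743 CPM post-treatment, and 3233, 4244 and 6951 CPM at washout. The same 4 animals were low post-treatment as for MYH1, at 734, 1897, 1971 and 2657 CPM, and the other 4 lay between 4825.5 and 8743 CPM. CASQ1, calsequestrin, which stores calcium in the sarcoplasmic reticulum of fast fibers, stood at 4436, 5189 and 6833 CPM pre-treatment, 1944, 4291 and 7336 CPM post-treatment, and 3356, 4963 and 6365 CPM at washout. CASQ1 was low post-treatment in animal 21189 alone, the other 7 lying at 3685 CPM or more.

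No fast fiber gene passed the test between any 2 time points. By edgeR's quasi-likelihood test with time point and animal in 1 fit over all SM libraries, a gene was called differentially expressed (DE) when its log2 fold change lay beyond 0.26 either way with a Benjamini-Hochberg adjusted p below 0.05. Of the 9 members 0 were called post-treatment compared to pre-treatment, where 0% of all tested genes were called, 0 at washout compared to post-treatment (0.190% of all genes, 24 of 12617) and 0 at washout compared to pre-treatment (0.0634%, 8 genes). DESeq2 and voomWithQualityWeights of limma also called 0 of the 9 in each comparison. Of all 12617 genes, DESeq2 called 0, 359 and 179 in the order above, and voomWithQualityWeights 0, 20 and 731. In edgeR 0 of the 9 had an unadjusted p under 0.05, where 409, 2181 and 1691 of the 12617 genes did. The ranges of the time points overlapped for all 9 genes in each of the 3 comparisons, as they did for nearly all genes: 0.00793%, 0.705% and 1.51% of genes had no overlap in the 3 comparisons in the order above.

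Post-treatment compared to pre-treatment, which asks what FGF21 treatment was followed by, the fitted change was below 0 for 8 of the 9 genes, beside 53.8% of all genes tested. It ranged from -0.31 to 0.11 on the log2 scale (median -0.15, against -0.02 for all genes tested). MYH1 stood at 57912 ± 33834 CPM post-treatment (SD, n = 8) against 69081 ± 22776 CPM pre-treatment (n = 6), a log2 fold change of -0.31 ± 0.38 (SE). CASQ1 had a log2 fold change of -0.31 ± 0.22, ACTN3 of -0.24 ± 0.37 and MYH2 of 0.11 ± 0.36. The adjusted p of all 9 was 0.9996 by edgeR, and the 95% interval reached from -1.06 to 0.44 for MYH1, so that both a fall and a rise lay inside it. Without the post-treatment library of animal 21189 the fitted changes were -0.01 for MYH1 and 0.07 for ACTN3, and those of TNNT3 (0.08) and TNNC2 (0.02) also lay above 0, with 0 calls among the 9.

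Washout compared to post-treatment, which asks what followed the end of treatment, gave fitted changes of both signs. The heavy chains were the highest, with log2 fold changes of 0.49 ± 0.36 (SE) for MYH1 and 0.48 ± 0.34 for MYH2, followed by ACTN3 at 0.32 ± 0.34 and CASQ1 at 0.17 ± 0.21. The light chains were the lowest, with -0.25 ± 0.20 for MYL1 and -0.26 ± 0.21 for MYLPF. The troponin subunits lay between, at 0.00 ± 0.25 for TNNT3, -0.07 ± 0.24 for TNNI2 and -0.22 ± 0.24 for TNNC2. None of these differed from 0 beyond the spread between biopsies that was left with animal in the fit. The smallest adjusted p by edgeR was 0.495 for MYH2, and the difference between the roles was not tested. Washout compared to pre-treatment, which sets the end of the washout against the starting point, gave a like order: 0.59 ± 0.36 for MYH2, 0.18 ± 0.37 for MYH1 and 0.08 ± 0.35 for ACTN3, against -0.40 ± 0.22 for both MYL1 and MYLPF and -0.33 ± 0.25 for TNNC2, with a smallest adjusted p of 0.429. These comparisons share libraries, so the likeness of their orders is no separate evidence.

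**Figure D2:**
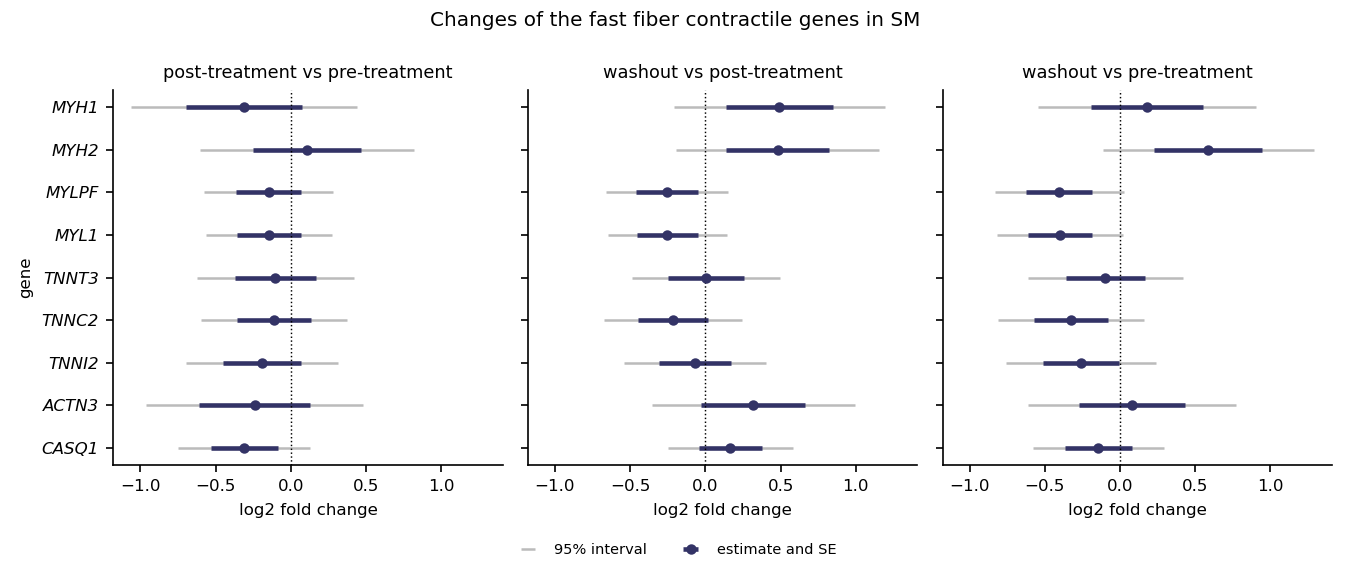
Log2 fold change (horizontal) of each of the 9 genes (vertical) in the 3 comparisons, with thick bars for 1 SE and thin bars for 95% intervals from the edgeR fit. Every thin bar crosses 0, and the estimates run from -0.40 for MYL1 and MYLPF to 0.59 for MYH2, both at washout compared to pre-treatment.

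In some animals all 9 genes moved the same way, but the direction differed between animals. From pre-treatment to post-treatment all 9 were lower in animals 20275 and 21189, 8 of 9 in animal 24849, and all 9 were higher in animal 23004, while animals 19832 and 22130 had 5 higher and 4 lower. The median change over the 9 genes ran from -1.07 on the log2 scale in animal 21189 to 0.46 in animal 23004. From post-treatment to washout all 9 were higher in animal 21189 (median change 1.22) and 8 of 9 in animal 24849 (0.64), whereas all 9 were lower in animals 19832 (-0.40) and 22130 (-0.79) and 8 of 9 in animals 20456 (-0.22) and 23004 (-0.14). Of the 6 animals with both ends, all 9 genes were higher at washout than pre-treatment in animal 24849 and lower in animal 22130. No gene moved the same way in every animal in any of the 3 comparisons.

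The identifier series moved with some of these values. Within the last series MYH1 lay between 13472 and 33373 CPM in the 3 post-treatment libraries and between 62495 and 101664 CPM in the 6 washout libraries. The 2 pre-treatment libraries of that series stood at 33895 and 98541 CPM. Between its post-treatment and washout libraries 3 of the 9 genes (MYH1, TNNT3 and ACTN3) did not overlap, all higher at washout, against 29.0% of all genes. Within the first series MYH1 lay between 76399 and 77489 CPM in 3 pre-treatment libraries and between 33446 and 105204 CPM in 5 post-treatment libraries, and 1 of the 9, TNNI2, did not overlap, higher post-treatment (3.06% of all genes). With the series as a covariate, washout compared to post-treatment gave log2 fold changes of 1.35 for MYH1 (adjusted p = 0.0207, edgeR) and 1.15 for ACTN3 (adjusted p = 0.0447), 2 of 9 called, where 21.0% of all genes were called, a share near that of the members. Washout compared to pre-treatment, the same model called 0 of the 9, where 10.7% of all genes were called. The part of the series in these values cannot be told apart from that of time.

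The spread between biopsies differed from gene to gene. Measured as the SD of log2 CPM within a time point, it was widest for ACTN3 (1.18), MYH1 (1.03) and MYH2 (0.99) post-treatment and narrowest for TNNT3 (0.22) and MYLPF (0.22) at washout. MYH2 was wide at each time point, with 0.79 pre-treatment and 0.81 at washout, where MYH1 stood at 0.29. The median over the 9 genes was 0.481 pre-treatment, 0.61 post-treatment and 0.294 at washout, beside 0.403, 0.521 and 0.351 for all genes tested, and beside 2.02, 1.74 and 1.40 for the 9 slow fiber genes of the table. Among the 91 genes averaging 1000 CPM or more, the medians were 0.385, 0.779 and 0.303. All 9 were more spread post-treatment than at washout and 7 of 9 more than pre-treatment. These orders depend on the scaling: with library size alone the members' medians were 0.405, 0.37 and 0.198, beside 0.418, 0.596 and 0.362 for all genes tested, so that pre-treatment was the widest for the members and each of their medians lay below that of all genes. With that scaling 8 of 9 genes were more spread post-treatment than at washout and 5 of 9 more than pre-treatment. Without the post-treatment library of animal 21189 the spread of ACTN3 fell to 0.875 and that of MYH1 to 0.772, and without the libraries of animal 19832 the pre-treatment median was 0.249. Differences in spread were not tested.

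**Figure D3:**
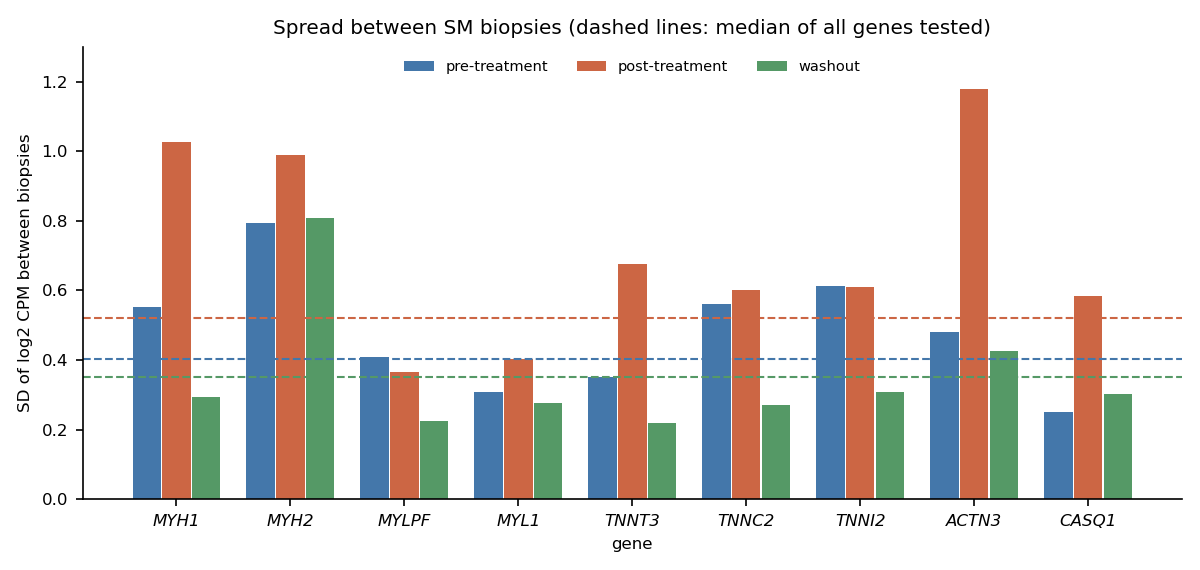
SD of log2 CPM between SM biopsies (vertical) for each of the 9 genes (horizontal), with 1 bar per time point and dashed lines for the median of all tested genes. Bars of ACTN3 (1.18) and MYH1 (1.03) are tall post-treatment and short at washout, whereas those of MYH2 stay between 0.79 and 0.99.

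Biopsies of 1 animal were scarcely more alike than biopsies of different animals. The time point means were removed first, and only biopsies of different time points were paired. Over 19 same-animal pairs and 127 pairs of different animals, the median absolute difference on the log2 scale was 0.647 against 0.721 for MYH1, 0.696 against 0.802 for MYH2, 0.608 against 0.707 for ACTN3 and 0.297 against 0.283 for MYLPF. CASQ1, at 0.225 against 0.355, had the widest relative gap among the members. For comparison, the slow troponin gene TNNI1 had 0.807 against 1.75. The relative gap was narrower for the slow myosin MYH7, at 1.502 against 1.903, and for the slow light chain gene MYL3, at 1.178 against 1.421. The pairs share libraries and were not tested.

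The genes rose and fell together across biopsies, with MYH2 apart. After the time point means were removed, Pearson r of log2 CPM over the 21 libraries from 8 animals ranged from 0.523 to 0.929 (median 0.784) for the 28 pairs without MYH2, and from -0.128 to 0.536 (median 0.242) for the 8 pairs with MYH2. All values share the libraries' scaling, and the correlations are a description. Every r value over SM libraries includes the post-treatment library of animal 21189, and none was computed without it. That library had the lowest mean standardized level of the 9 genes, -2.11, with the next at -0.98. Among 7287 genes averaging 10 CPM or more, those most like the mean standardized level of the 9 over the 21 libraries were TPI1 (r = 0.957), AK1 (0.944), KIAA2013 (0.944), TMOD4 (0.944) and GAPDH (0.944). TPI1 and GAPDH are glycolytic enzymes, AK1 is an adenylate kinase of muscle, and TMOD4 caps thin filaments in skeletal muscle. The least like were JAM3 (r = -0.929), SEC61A1 (-0.928), PTGFRN (-0.925), SPRED1 (-0.924) and ITGAV (-0.923), among them the adhesion genes JAM3 and ITGAV.

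Low fast fiber values went with high collagen values, most visibly post-treatment. COL1A1, a fibrillar collagen chain of fibroblasts, chosen after its values were seen, stood at 5951, 2934, 1836 and 823 CPM in the 4 post-treatment biopsies with the lowest MYH1 (animals 21189, 21866, 20275 and 24849) and at 14.7 to 69.9 CPM in the other 4. These 4 libraries had TMM factors of 1.23 to 1.46, and 3 of them are of the last identifier series. At washout the biopsy with the highest COL1A1, from animal 22130 (865 CPM), was the lowest for 7 of the 9 genes, all but MYH1 and MYH2. Pre-treatment the biopsy with the lowest COL1A1, from animal 19832 (40.5 CPM), was the highest for 8 of the 9, all but MYH2. Single biopsies departed from this. Pre-treatment, animal 24849 had 1027 CPM of COL1A1 with 77489 CPM of MYH1, and animal 20275 had 100.9 CPM of COL1A1 with 33895 CPM of MYH1. Among the post-treatment biopsies high in COL1A1, that of animal 24849 had 19792 CPM of MYL1, where the highest was 20507 CPM. That of animal 21866 had 10526 CPM of MYLPF, above the post-treatment median of 10226 CPM. With the time point means removed, Pearson r of log2 CPM with COL1A1 over the 21 libraries from 8 animals was between -0.866 for TNNT3 and -0.490 for MYH2, with -0.825 for ACTN3 and -0.797 for MYH1, a description of values that share the libraries' scaling. The 6 fibroblast markers summed to 519 to 6197 CPM pre-treatment, 249 to 25979 CPM post-treatment and 404 to 5357 CPM at washout, and 0 of the 6 were called in any comparison. They did not all move with the collagens. At washout compared to post-treatment 4 had a fitted change below 0 and 2 above, from -1.25 for COL1A1 to 1.32 for PDGFRA. The 4 adipocyte markers found in the table summed to 36.7 to 1174 CPM, highest in animal 24849 post-treatment. In the post-treatment biopsy of animal 21189 the 5 genes of developing fibers, which include the embryonic and perinatal myosins, summed to 3984 CPM, against a post-treatment median of 174 CPM, and 0 of the 5 were called in any comparison. The erythroid markers, of which HBA1 and HBA2 were listed at 0, had median sums of 38.5 CPM pre-treatment, 55.4 CPM post-treatment and 839 CPM at washout, with 0 called. Over all SM libraries the endothelial markers summed to 85.3 to 294 CPM, the macrophage markers to 13.2 to 229 CPM, the smooth muscle markers to 38.8 to 633 CPM, the Schwann cell markers to 2.06 to 37.4 CPM and the T cell markers to at most 1.37 CPM. The part of these other cells and fibers in the fast fiber values was not tested.

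**Figure D4:**
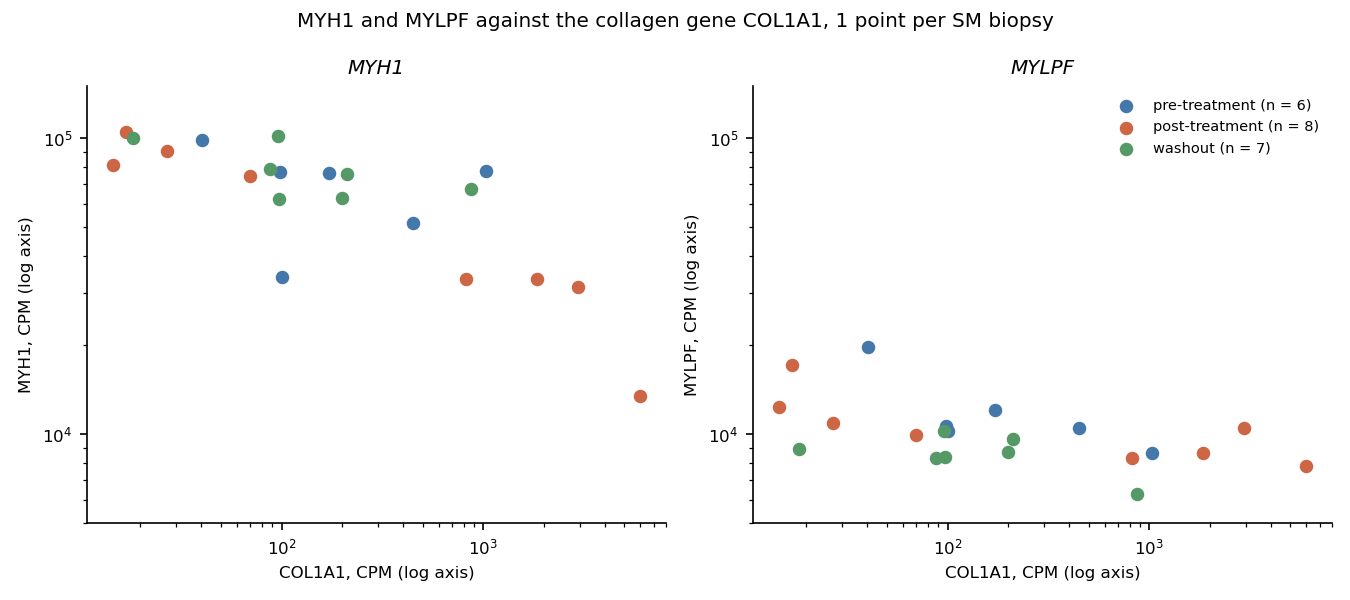
CPM of MYH1 (left) and MYLPF (right), on log axes, against CPM of the collagen gene COL1A1, with 1 point per SM biopsy coloured by time point. Post-treatment biopsies form 2 clusters, with COL1A1 of 823 CPM or more where MYH1 is 33446 CPM or less, while MYLPF spans a narrower range.

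The share of counts on each adult myosin heavy chain was also described, as a share of reads and not of molecules, because no transcript lengths were at hand. MYH1 took 55.5% to 90.9% of the counts on MYH1, MYH2, MYH4 and MYH7, and MYH2 took 4.29% to 30.9%. MYH1 was at 81.9 ± 9.59% pre-treatment (SD, n = 6), 78.5 ± 9.82% post-treatment (n = 8) and 77.3 ± 11.7% at washout (n = 7), differences smaller than the SD. The MYH1 to MYH2 count ratio ran from 2.01 in animal 20275 at washout to 21.2 in animal 24849 pre-treatment, and it was high in animal 24849 at every time point (16.3 post-treatment and 17.8 at washout). MYH4, the myosin of type IIB fibers, named after its values were seen, took 0.0842% to 7.03%. The 95% Wilson interval of any MYH1 share was at most 0.262 percentage points wide, which covers counting error only.

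**Figure D5:**
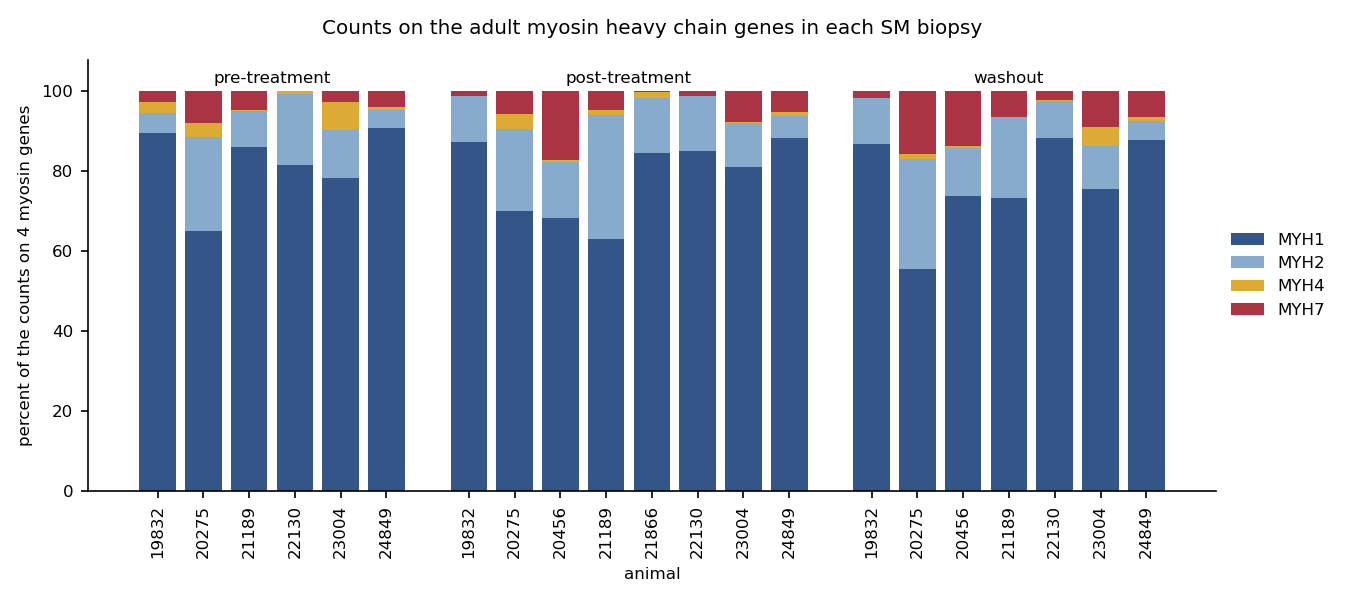
Percent of the counts on 4 adult myosin heavy chain genes (vertical) in each SM biopsy (horizontal, by animal), stacked for MYH1, MYH2, MYH4 and MYH7 and grouped by time point. MYH1 is the largest part in all 21 biopsies, and the slow myosin MYH7 ranges from 0.00256% to 17.1%.

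The slow fiber counterparts varied more between biopsies. MYH7, the slow myosin heavy chain, had lowest, median and highest levels of 2.39, 3076 and 4177 CPM pre-treatment, 94.6, 1638 and 18740 CPM post-treatment, and 1663, 7338 and 17661 CPM at washout. Its log2 fold changes were 0.22 ± 0.93 (SE) post-treatment compared to pre-treatment and 0.99 ± 0.80 at washout compared to post-treatment, neither DE by edgeR. TNNI1 stood at medians of 649.7, 771 and 1109 CPM at the 3 time points and MYL3, the slow essential light chain, at 387, 488 and 716 CPM. Of the 12 slow fiber genes listed, 9 were in the table and tested, and 0 were called in any comparison, with median log2 fold changes of 0.45, 0.00 and 0.57 in the order above. TNNT1, ATP2A2 and MYH7B were not analysed here. These medians and the pre-treatment spread of the slow genes include the pre-treatment library of animal 22130, which held almost no slow fiber signal. Post-treatment compared to pre-treatment, MYH7 was lower in 4 of 6 animals, and its highest change within an animal was 8.90 on the log2 scale.

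Other genes of the fast fiber program did not pass the test either. Of 8 tested genes of further fast fiber structure, 7 regulators of the fast program, 6 regulators of the slow program and 12 glycolytic and fast fiber energy enzymes, 0 were called in any comparison, against 0%, 0.190% and 0.0634% of all genes. Post-treatment compared to pre-treatment, all 12 of the energy enzymes had a fitted change below 0, from -0.36 to -0.05 (median -0.20, against -0.02 for all genes), beside 53.8% of all genes below 0. In the same comparison 7 of the 8 structural genes lay below 0, from -1.59 for MYH4 to 0.04 (median -0.12). Of these 8, 1 had an unadjusted p under 0.05 by edgeR, beside 409 of all 12617 genes. The genes of a list share libraries, and this fit includes the post-treatment library of animal 21189. At washout compared to post-treatment, all 7 regulators of the fast program had a fitted change above 0, from 0.01 to 0.68 (median 0.33, against -0.03 for all genes), with a smallest adjusted p of 0.125 by edgeR. The regulators of the slow program lay alike, with 5 of 6 above 0 and a median of 0.33, and 7 of the 8 muscle markers were above 0, with a median of 0.26.

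In subcutaneous adipose tissue (AT) of 10 animals, the 8 with SM libraries among them, the fast fiber genes were low, with TNNT3 and ACTN3 above the others. Over 27 AT libraries the median was 6.99 CPM for MYH1, 1.01 CPM for MYH2, 1.17 CPM for MYLPF and for MYL1, 2.07 CPM for TNNC2, 3.84 CPM for TNNI2 and 0.56 CPM for CASQ1. Counts in single AT libraries were as low as 3 for CASQ1 and MYLPF and 5 for MYH2, so that counting error is part of these low levels. TNNT3 stood at a median of 74.9 CPM (37.1 to 146 CPM) and ACTN3 at 13.7 CPM (3.95 to 36.8 CPM). Each of the 9 was higher in every SM library than in any AT library, the lowest SM level of ACTN3 being 19.97 times its highest AT level and that of MYL1 1244 times. Across the AT libraries, log2 levels of MYH2, TNNC2, MYLPF, MYL1 and CASQ1 followed MYH1 with Pearson r of 0.874 to 0.940, TNNI2 with 0.464, and TNNT3 (-0.05) and ACTN3 (-0.04) hardly at all, a description over libraries of which several share an animal.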

How the data were processed

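RNA was extracted from snap-frozen SM and AT punch biopsies, and stranded mRNA libraries were sequenced with paired-end reads. Per the labels and the study's methods, STAR was the aligner and MacaM the genome, and the authors deposited raw counts of reads per gene, not normalized; the counting tool is not given in the sources used here. The table held 16103 entries, of which 70 repeated a gene with identical counts and were dropped. No per-sample column was left unused. The tests covered genes that reached 0.5 CPM in 10% or more of SM libraries, after TMM normalization, with the robust quasi-likelihood test of edgeR 4.0.16 (R 4.3.3) on time point and animal, 1 fit for all SM libraries, and p-values were adjusted over all of these genes (Benjamini-Hochberg); the SE is the log2 fold change divided by the root of the F statistic, and 95% intervals of log2 fold changes assume a normal distribution. Log2 CPM used a prior count of 2. The study's own test, voomWithQualityWeights (limma 3.58.1), was an alternative, as were DESeq2 1.42.0, library size alone, no filter, no replicate block, the 2 time points alone, the identifier series, no fold change limit and each animal left out. Added after the data were seen were edgeR's earlier quasi-likelihood method and fits without the post-treatment library of animal 21189, the pre-treatment library of animal 22130 or that of animal 19832.

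The animals were biopsied repeatedly, so the animal number pairs the libraries (6 animals with both pre-treatment and post-treatment libraries, 7 with post-treatment and washout, 6 with pre-treatment and washout), and animal was in the fit as in the study's methods. P-values measure the spread between single biopsies of each animal. The edgeR fit was tested on simulated counts for post-treatment compared to pre-treatment. Those counts held no animal or identifier series effects, so the handling of such effects was not tested. All members were named, with slow counterparts and the 5 most and 5 least alike genes by Pearson r. The members and lists were chosen with earlier results of these data known. No transcript lengths, sequences or coordinates of the MacaM build were used, so levels were not compared per length between genes. NumPy 2.4.6, pandas 2.3.3 and matplotlib 3.10.9 (Python 3.11.15) were used for tables and figures.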

Additional observations from a re-analysis of the deposited data

Results flagged for a closer look

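Of 27 sets of values (9 genes at 3 time points), 4 held a biopsy far from the others by Dixon's 95% criterion, which chance meets in about 1 of 20 groups, and all 4 were the pre-treatment biopsy of animal 19832. It stood at 26257 CPM of TNNC2, with the next biopsy at 12359.5 CPM, at 16808 CPM of TNNI2, with the next at 8543 CPM, at 19718 CPM of MYLPF, with the next at 12108 CPM, and at 8008 CPM of ACTN3, with the next at 4623 CPM. The 4 values come from 1 library and are not independent. That library is of the last identifier series, and its fibroblast marker sum, 519 CPM, was the lowest pre-treatment. Without it the log2 fold change post-treatment compared to pre-treatment was 0.00 for TNNC2 in place of -0.11, and -0.04 for TNNI2 in place of -0.19, with 0 calls among the 9 genes.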

How the results depend on the processing

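No member was called under any alternative but 1: with the identifier series as a covariate, 2 were called at washout compared to post-treatment, MYH1 and ACTN3, where 2648 genes were called in all. Without the replicate block, which pairs the libraries of an animal, 0 of 9 were called in each comparison (smallest adjusted p 0.999, 0.392 and 0.377, edgeR), though the calls over all genes went from 24 to 216 and from 8 to 41. DESeq2 called 359 and 179 genes, voomWithQualityWeights 20 and 731, library size alone 4 and 3, the 2 time points alone 2 and 9. Library size alone shifted the median of all genes to -0.16 and -0.12 in the washout comparisons.

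Fitted changes, none of them called, that crossed 0 did so as follows. Post-treatment compared to pre-treatment, voomWithQualityWeights gave 0.057 for MYH1, 0.10 for TNNT3, 0.12 for TNNC2, 0.11 for TNNI2 and 0.15 for ACTN3, and the identifier series gave -0.052 for MYH2. At washout compared to post-treatment, TNNT3 was -0.093 with library size alone, -0.14 with voomWithQualityWeights and -0.035 without the replicate block, and the identifier series gave 0.031 for TNNC2 and 0.11 for TNNI2. At washout compared to pre-treatment the series gave 0.17 for TNNT3 and 0.087 for CASQ1, and library size alone -0.0074 for ACTN3. Over fits that each left out 1 animal or library, the post-treatment to pre-treatment change ranged from -0.51 to 0.081 for MYH1, from -0.13 to 0.34 for MYH2, from -0.25 to 0.11 for TNNT3, from -0.22 to 0.054 for TNNC2 and from -0.45 to 0.14 for ACTN3, the values above 0 coming without animal 21189 or its post-treatment library (for TNNC2 also 0.0014 without the pre-treatment library of animal 19832; for MYH2, those below 0 came without animal 19832 or that library). The washout to post-treatment change ranged from -0.15 to 0.14 for TNNT3 and from -0.26 to 0.053 for TNNI2, and the washout to pre-treatment change from -0.19 to 0.0031 for TNNT3 and from -0.032 to 0.22 for ACTN3. The median spread was 0.37 post-treatment with library size alone, and 0.249 to 0.538 pre-treatment with 1 animal left out. The causes were not tested.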
